A study of Mus musculus with 12 samples.

Results

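The 39 genes described here encode the proteins that bring fatty acids into heart muscle cells, activate them, carry them into mitochondria, oxidize them there, or set how much of them is stored and burned. They were taken as the rows whose gene symbol equals a listed symbol, and all 39 were found in each of the 12 sample files among 33641 gene symbols. All 39 also passed the filter for testing, an average over all 12 samples of 0.5 TPM or more, as did 12526 genes in all. TPM is a gene's share of all transcripts in a sample after its length is allowed for, so that levels of different genes can be set side by side.

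Polyadenylated RNA was sequenced from the left ventricle (LV) and right ventricle (RV) of young mice in which the coding sequence of human phospholamban (PLN), the inhibitor of the calcium pump SERCA2a, had been put in place of the mouse sequence. WT-PLN mice carry the normal human sequence, and R14del-PLN mice the human sequence without arginine 14, so both groups are knock-ins of the human gene and neither is an unmodified mouse. Per the methods, the mutant colony is heterozygous, with the normal human sequence on the other allele. The 4 groups of ventricle and genotype held 3 samples each, from mice of 12 to 14 weeks, labelled C57BL/6J. The titles call the mutant samples "KO", while their genotype entry gives the R14del mutation. The methods describe male mice of a line founded by chimeras of 129/Sv-CP and C57Bl/6J background and bred to Sox2-Cre mice, in which Cre acts in the whole embryo, so the knock-in is not limited to the heart. Whether the samples of a group are separate hearts is not given in the labels, and the p-values measure the spread between these samples.

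The adult heart draws most of its fuel from long-chain fatty acids. Lipases at the capillary wall free them from circulating lipoproteins, carriers in the membrane and cytosol move them, and an acyl-CoA synthetase primes them for use. The carnitine shuttle takes the acyl groups across the mitochondrial inner membrane, where each turn of the beta-oxidation spiral shortens the chain and passes electrons through flavoproteins to the respiratory chain. The nuclear receptor PPARα, encoded by Ppara, and the coactivator encoded by Ppargc1a switch on many genes of this route.

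The values of each sample sum to 1000000 TPM and hold no record of sequencing depth, so that the precision is known only from the spread between replicates. Between 17924 and 18879 genes were above 0 in a sample. Mitochondrially encoded genes took 37.3% of the TPM in LV R14del-PLN replicate 3 and 44.0% to 54.5% in the other samples, which moves all nuclear genes the other way. The 8 ventricular cardiomyocyte markers summed to between 40045 and 61017 TPM, and Pln was at 1559 to 1963 TPM. Summed TPM of Y-linked genes was 0.250 to 0.284 in the LV and RV WT-PLN samples numbered 1 and 43.5 to 63.7 in the other 10, so that those 2 go against the male mice of the methods. RV R14del-PLN replicate 3 is the only sample from its sequencing run. In bulk tissue, fewer cells of a type and less RNA per cell cannot be told apart.

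No member of the group was called as different between the genotypes. Cutoffs followed the study's methods, an adjusted p of at most 0.05 and a change of at least 1.5-fold (0.58 on the log2 scale). With limma on log2(TPM + 1) and Benjamini-Hochberg adjustment over all 12526 tested genes, 0 of 39 members were called in LV, where 0.519% of all tested genes were called. In RV, 0 of 39 members were called, and 0.271% of all tested genes. At an unadjusted p of at most 0.05, 1 of 39 members (Lipe, lower) passed in LV against 9.6% of all tested genes, and 0 of 39 passed in RV against 6.22%. The 3 values of each genotype did not overlap for 1 member in LV (Lipe, lower in R14del-PLN) and for 2 in RV (Slc25a20, higher, and Dgat2, lower), while this was so for 11.0% of all tested genes in each ventricle. After mitochondrially encoded genes were removed and the rest rescaled, the genotypes did not overlap for 6 members in LV (Crat and Acads higher, Echs1, Pnpla2, Lipe and Dgat2 lower in R14del-PLN) against 20.3% of all tested genes, and for 0 in RV against 14.3%. The shares of members were below the background on both scales.

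The intervals show how large a difference the data still allow. Of the 39 members, 32 (82.1%) in LV and 33 (84.6%) in RV had a 95% interval of the genotype difference that lay wholly within 1.5-fold in either direction, against 73.6% and 76.9% of all tested genes. These included all 7 genes of activation and the carnitine shuttle, all 10 beta-oxidation enzymes, all 3 auxiliary enzymes and all 3 genes of electron transfer, in both ventricles. The intervals reached beyond 1.5-fold for Ppara, Ucp3, Pdk4, Angptl4, Acot1 and Acot2 in both ventricles and for Lipe in LV. The median difference of the members was -0.02 on the log2 scale in both ventricles (range -0.44 to 0.41 in LV and -0.41 to 0.29 in RV), beside -0.09 in LV and -0.0034 in RV over all tested genes. The difference was above 0 for 18 members in LV and for 14 in RV.

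**Figure D1:**
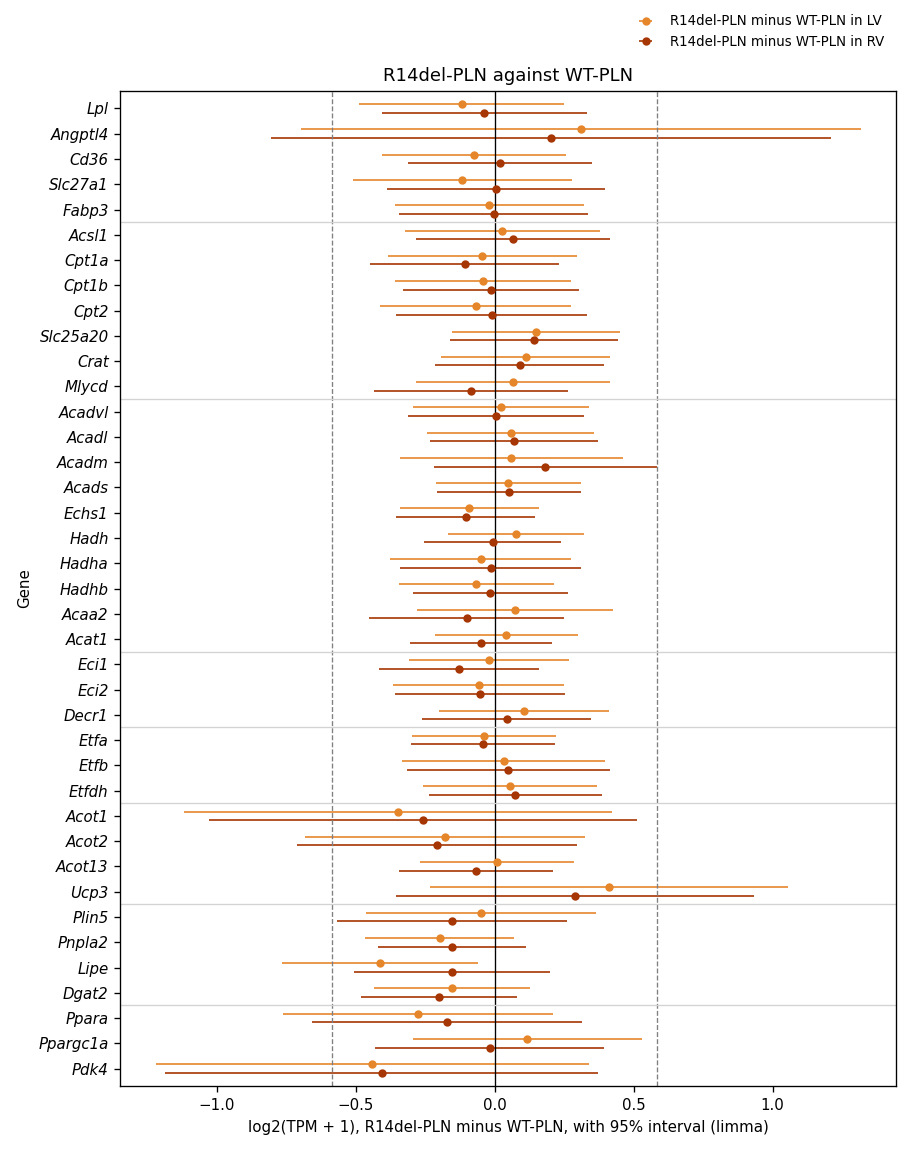
Difference of each of the 39 members between R14del-PLN and WT-PLN samples on the log2(TPM + 1) scale, in LV (light) and RV (dark), as the limma estimate with its 95% interval; dashed lines mark a change of 1.5-fold and grey lines part the roles. Nearly all estimates sit close to 0 with intervals inside the dashed lines, and wide intervals belong to Angptl4, Acot1, Acot2, Ucp3, Ppara and Pdk4.

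Of the proteins of uptake, Fabp3, Lpl and Cd36 were among the abundant transcripts of the ventricles (ranks 27, 45 and 81 of all genes by mean TPM), while the lipase inhibitor Angptl4 was scarce. In the following, the values of each group are given for replicates 1, 2 and 3 in that order. Fabp3, the fatty acid binding protein of heart muscle cytosol (GRCm38 chromosome 4 from 130308595 to 130315463), was at 4101, 3439.5 and 3984 TPM in LV WT-PLN, 3444, 2981 and 3199 in RV WT-PLN, 3284, 3407 and 4831 in LV R14del-PLN and 2808, 3652 and 3179.6 in RV R14del-PLN samples. LV R14del-PLN replicate 3 was the highest sample and RV R14del-PLN replicate 1 the lowest. The genotypes overlapped in both ventricles, with group means of 3842 ± 353 (SD, n = 3) and 3841 ± 859.7 TPM in LV and a difference of -0.02 (95% interval -0.36 to 0.32). A processed copy, Fabp3-ps1, is 99.3% identical to its transcript and was listed at a mean of 5.98 TPM, and Zcchc17, at 11.3 TPM, overlaps it on the opposite strand, so that some reads of these genes may be assigned either way.

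Lpl, the lipase that frees fatty acids from lipoproteins at the capillary wall, was at 1318, 1372 and 1452 TPM in LV WT-PLN, 1129, 1089 and 1329 in RV WT-PLN, 1141, 1120.2 and 1604 in LV R14del-PLN and 1005, 1466 and 1027 in RV R14del-PLN samples. The R14del-PLN samples spanned a wider range than the WT-PLN samples and overlapped them in both ventricles. Angptl4, a secreted inhibitor of that lipase, was at only 4.68, 2.49 and 1.67 TPM in LV WT-PLN, 7.26, 1.49 and 0.802 in RV WT-PLN, 3.81, 4.70 and 2.67 in LV R14del-PLN and 3.93, 3.65 and 1.47 in RV R14del-PLN samples. It had the widest spread of all members, with a highest value 9.05 times the lowest, and RV WT-PLN replicate 1 stood above the other 11 samples. Cd36, the fatty acid receptor and carrier of the cell surface, had group means from 731 ± 62.1 in RV WT-PLN to 783 ± 32.9 TPM (SD, n = 3) in LV WT-PLN, and Slc27a1, a fatty acid transport protein, lay between 52.0 and 83.2 TPM in the 12 samples. The genotype differences of Cd36 were -0.07 in LV and 0.02 in RV, and those of Slc27a1 -0.12 and 0.0046, with intervals inside 1.5-fold in both ventricles.

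The 7 genes of activation and of the carnitine shuttle had genotype differences between -0.11 and 0.15 in the 2 ventricles. Acsl1, the main long-chain acyl-CoA synthetase of the heart, was at 246, 218 and 225 TPM in LV WT-PLN, 245, 209.7 and 253 in RV WT-PLN, 189.9, 223 and 302 in LV R14del-PLN and 222, 285 and 236 in RV R14del-PLN samples. All 4 groups overlapped, and the genotype difference was 0.03 in LV and 0.07 in RV. Slc25a20, the carrier that exchanges acylcarnitine for carnitine across the inner membrane, was at 91.4, 74.3 and 84.4 TPM in LV WT-PLN, 90.5, 71.1 and 90.6 in RV WT-PLN, 82.9, 85.8 and 110.4 in LV R14del-PLN and 90.8, 92.9 and 93.3 in RV R14del-PLN samples. The 3 RV R14del-PLN values were close together and all above the RV WT-PLN values, by a small margin over replicates 1 and 3. The limma difference in RV was 0.14 (SE 0.14, 95% interval -0.16 to 0.45, adjusted p = 1.00), and in LV it was 0.15 with groups that overlapped.

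The muscle form of carnitine palmitoyltransferase 1, Cpt1b, the gate to mitochondrial import, far exceeded the liver form, Cpt1a. Cpt1b had group means from 203 ± 21.8 in RV R14del-PLN to 232 ± 20.8 TPM in LV WT-PLN, and Cpt1a from 10.2 ± 1.86 in LV R14del-PLN to 11.3 ± 1.76 TPM in RV WT-PLN (SD, n = 3). The ratio of Cpt1b to Cpt1a was 22.8, 22.1 and 21.2 in LV WT-PLN and 16.4, 20.2 and 17.9 in RV WT-PLN samples. It was 23.8, 19.4 and 23.6 in LV R14del-PLN and 16.8, 20.0 and 21.9 in RV R14del-PLN samples. The ventricles did not overlap in WT-PLN hearts and overlapped in R14del-PLN hearts, and the genotypes overlapped in each ventricle (these ratios lie outside the rule for named genes and were not tested). Cpt2, which returns the acyl group to CoA inside the mitochondrion, lay between 69.5 and 99.3 TPM. Crat, which buffers acetyl-CoA as acetylcarnitine, lay between 144 and 212 TPM, and Mlycd, which breaks down the malonyl-CoA that inhibits carnitine palmitoyltransferase 1, between 29.0 and 42.3 TPM.

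The 10 enzymes of the beta-oxidation spiral itself were abundant, and their genotype differences lay between -0.10 and 0.18. The acyl-CoA dehydrogenases, which take the first step for chains of decreasing length, had mean levels over the 12 samples of 405 TPM for Acadvl (very long), 586 for Acadl (long), 986 for Acadm (medium) and 108 for Acads (short). Acadm was at 933, 902 and 899.6 TPM in LV WT-PLN, 937, 889 and 1040.2 in RV WT-PLN, 850.3, 889.9 and 1133 in LV R14del-PLN and 931, 1539.6 and 883 in RV R14del-PLN samples. RV R14del-PLN replicate 2 stood far above the other 11 samples, and its ratio of Acadm to Acadl was 2.30, against 1.49 to 1.76 in the other 11. With it the RV difference was 0.18 (95% interval -0.22 to 0.58), and without it -0.07, so the direction rests on that sample.

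Hadha and Hadhb, which encode the subunits of the trifunctional protein for long chains, lie head to head on chromosome 5 from 30118304 to 30155162 (Hadha, minus strand) and from 30155248 to 30184593 (Hadhb, plus strand). Over the 12 samples, Hadhb was at 1.62 ± 0.110 times Hadha (SD, n = 12, range 1.43 to 1.76). The genotype differences were -0.05 in LV and -0.01 in RV for Hadha and -0.07 and -0.02 for Hadhb. Hadhb has a copy, Gm13910, that is 99.8% identical and was listed at a mean of 0.816 TPM.

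Echs1, the short-chain enoyl-CoA hydratase, was at 205, 197 and 211 TPM in LV WT-PLN, 184, 175 and 193 in RV WT-PLN, 175, 182 and 221 in LV R14del-PLN and 184, 172 and 159 in RV R14del-PLN samples. Acat1, which splits acetoacetyl-CoA in the last turn and in ketone use, was at 159.5, 146 and 155 TPM in LV WT-PLN, 149.6, 134 and 159 in RV WT-PLN, 142, 152 and 183 in LV R14del-PLN and 148, 144 and 135 in RV R14del-PLN samples. For both genes the genotypes overlapped in each ventricle in TPM. After mitochondrially encoded genes were removed and the rest rescaled, those of Echs1 did not overlap in LV. Hadh, the dehydrogenase for shorter chains, lay between 283 and 367 TPM, and Acaa2, the mitochondrial thiolase, between 419 and 611 TPM. In LV, 7 of the 10 enzymes had a difference above 0 and the median was 0.05. In RV, 4 of 10 did, with a median of -0.01.

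The auxiliary enzymes, which move or reduce the bonds of unsaturated chains so that they can enter the spiral, and the electron transfer genes likewise had intervals within 1.5-fold in both ventricles. Eci1, an enoyl-CoA isomerase, was at 200.4, 176 and 176 TPM in LV WT-PLN, 189, 158 and 151 in RV WT-PLN, 176, 169 and 199.9 in LV R14del-PLN and 173, 132 and 151 in RV R14del-PLN samples. The genotypes overlapped in both ventricles, with differences of -0.02 in LV and -0.13 in RV. The related isomerase Eci2 lay between 78.3 and 111 TPM and the dienoyl-CoA reductase Decr1 between 101 and 150.2 TPM.

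Etfb, a subunit of the electron transfer flavoprotein that collects electrons from the acyl-CoA dehydrogenases, was at 587, 542 and 555 TPM in LV WT-PLN, 574, 477 and 530.4 in RV WT-PLN, 507, 516 and 723 in LV R14del-PLN and 545, 674 and 437 in RV R14del-PLN samples. RV R14del-PLN held both a high value, in replicate 2, and the lowest value of the 12, in replicate 3. The other subunit, Etfa, was the steadiest member, with a highest value 1.29 times the lowest (344 to 444 TPM), and Etfdh, which hands the electrons to ubiquinone, lay between 219 and 335 TPM. Etfb shares its exons on the same strand with Gm45233, which is identical over 595 bases and was listed at a mean of 1.11 TPM.

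Thioesterases release fatty acids from CoA again, and Ucp3 encodes a mitochondrial uncoupling protein that is turned on with fatty acid supply. Acot1, Acot2 and Ucp3 varied more than 2 times between samples. Acot13, the most abundant of them (chromosome 13 from 24817948 to 24831540), was at 285, 287 and 281 TPM in LV WT-PLN, 237, 238 and 251 in RV WT-PLN, 262, 256 and 348 in LV R14del-PLN and 242, 207 and 246 in RV R14del-PLN samples. Its genotypes overlapped in both ventricles, and the RV values in TPM lay below the LV values in each genotype. Acot1 and Acot2, a cytosolic and a mitochondrial thioesterase encoded side by side on chromosome 12 (Acot2 from 83987861 to 83993873 and Acot1 from 84009490 to 84018371), have transcripts that are 97.3% identical over 669 bases, so reads may be split between them in an uncertain way. Acot1 was at 7.73, 2.41 and 2.89 TPM in LV WT-PLN, 9.29, 3.55 and 2.90 in RV WT-PLN, 2.49, 3.53 and 2.55 in LV R14del-PLN and 4.05, 3.50 and 3.70 in RV R14del-PLN samples.

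Acot2 was at 40.0, 21.4 and 26.7 TPM in LV WT-PLN, 38.1, 19.6 and 24.5 in RV WT-PLN, 22.9, 25.4 and 26.9 in LV R14del-PLN and 20.3, 24.4 and 23.8 in RV R14del-PLN samples. The samples numbered 1 of WT-PLN, in LV and RV alike, were the highest 2 of 12 for both genes. With all samples the difference of Acot1 was -0.35 in LV and -0.26 in RV, and without those 2 samples it was 0.07 and 0.17. For Acot2 the differences went from -0.18 and -0.21 to 0.06 and 0.05. Ucp3 was at 22.5, 16.9 and 10.5 TPM in LV WT-PLN, 32.1, 18.3 and 14.3 in RV WT-PLN, 16.9, 24.8 and 23.8 in LV R14del-PLN and 24.0, 32.4 and 20.2 in RV R14del-PLN samples. The groups overlapped, with a limma difference of 0.41 in LV (95% interval -0.23 to 1.06, adjusted p = 0.737) and 0.29 in RV. Without both WT-PLN samples numbered 1 it was 0.65 (adjusted p = 0.263, limma) and 0.60 (adjusted p = 0.625). For Angptl4, the RV difference went from 0.20 to 0.86 (adjusted p = 0.417, limma) when those samples were left out. Acot1, Acot2 and Angptl4 lie outside the rule for named genes and were given in full after their values were seen.

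**Figure D2:**
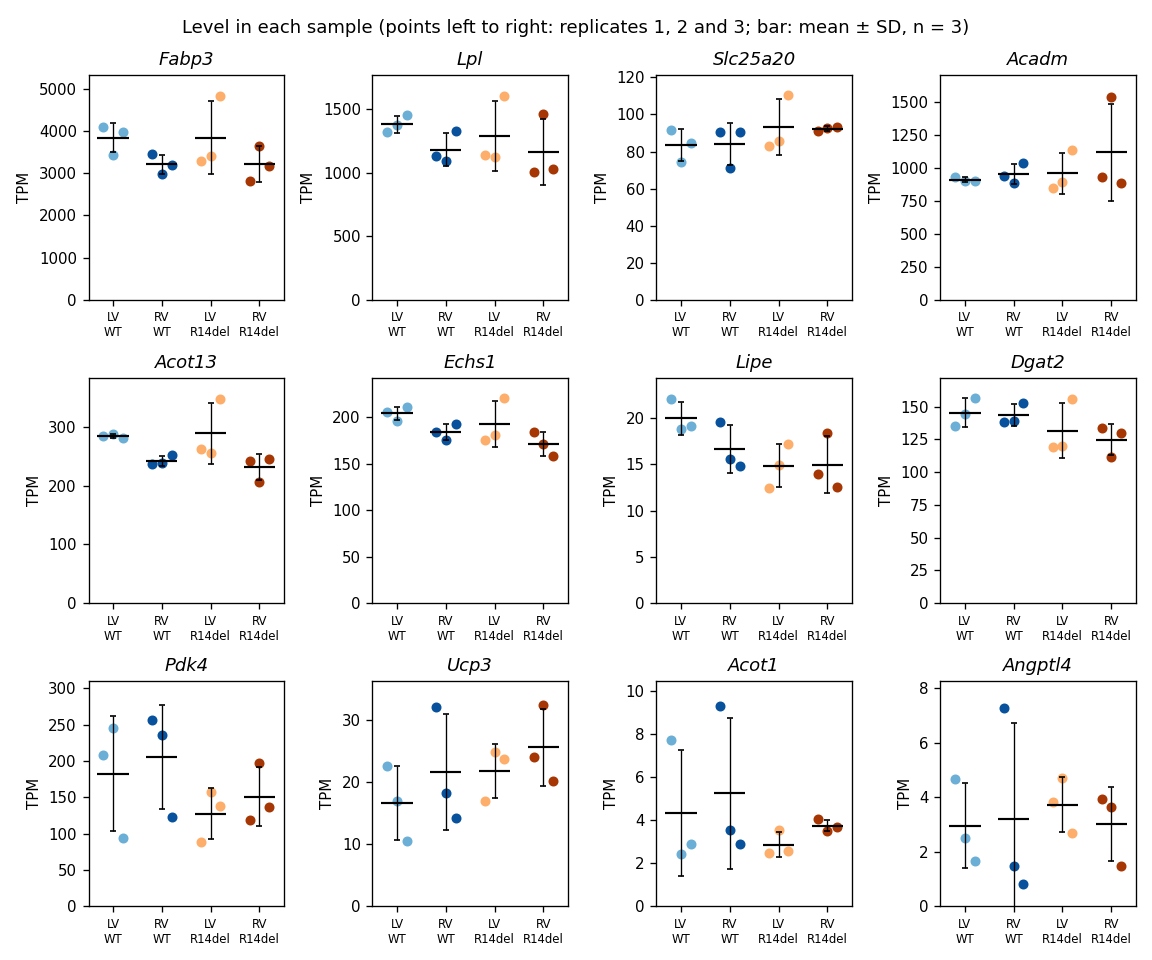
TPM of 12 members in each sample by ventricle and genotype (points left to right are replicates 1, 2 and 3; bars give the mean ± SD of 3 samples, ending at the axis where the SD exceeds the mean). The abundant members overlap between genotypes, Lipe in LV and Slc25a20 and Dgat2 in RV do not, and replicate 1 of WT-PLN is the highest sample of its group for Acot1, Ucp3 and Angptl4.

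None of the 4 genes of the lipid droplet, the store from which fatty acids are drawn between meals, was called between genotypes. In TPM the difference of all 4 lay below 0 in both ventricles, as in LV it did for 71.7% and in RV for 50.9% of all tested genes, but that of Plin5 lay above 0 in LV with quantile normalization (0.06) and upper quartile scaling (0.07) and in both ventricles without the WT-PLN samples numbered 1 (0.08 and 0.0094). Lipe, hormone-sensitive lipase (chromosome 7 from 25379527 to 25398710), was at 22.0, 18.8 and 19.2 TPM in LV WT-PLN, 19.6, 15.6 and 14.8 in RV WT-PLN, 12.5, 15.0 and 17.2 in LV R14del-PLN and 14.0, 18.4 and 12.5 in RV R14del-PLN samples. The LV groups did not overlap, with 20.0 ± 1.77 TPM in WT-PLN and 14.9 ± 2.35 TPM in R14del-PLN hearts (SD, n = 3), while the RV groups overlapped. In LV the limma difference was -0.41 (SE 0.16, 95% interval -0.77 to -0.06, adjusted p = 0.420), and in RV it was -0.15 (adjusted p = 1.00). The difference between the 2 ventricles, given by the interaction term, was 0.26 (95% interval -0.24 to 0.76, adjusted p = 1.00, limma).

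Pnpla2, adipose triglyceride lipase, which takes the first fatty acid off stored triglyceride, was at 161, 143 and 152 TPM in LV WT-PLN, 154, 127 and 137 in RV WT-PLN, 130.2, 122 and 146 in LV R14del-PLN and 116, 142 and 118 in RV R14del-PLN samples. In TPM the genotypes overlapped in both ventricles, with limma differences of -0.20 in LV (adjusted p = 0.676) and -0.15 in RV (adjusted p = 1.00). Dgat2, which makes triglyceride, was at 136, 144 and 157 TPM in LV WT-PLN, 138, 139 and 153 in RV WT-PLN, 119, 119.9 and 156 in LV R14del-PLN and 134, 111 and 130.0 in RV R14del-PLN samples. In TPM the RV groups did not overlap, although RV WT-PLN replicate 1 and RV R14del-PLN replicate 1 were close, and the limma difference was -0.20 (95% interval -0.48 to 0.08, adjusted p = 0.995). After mitochondrially encoded genes were removed and the rest rescaled, the RV groups of Dgat2 overlapped. In LV the rescaled genotypes did not overlap for Lipe, Pnpla2 and Dgat2, all lower in R14del-PLN, beside 20.3% of all tested genes. Those of Plin5 overlapped. Plin5, which tethers droplets to mitochondria, lay between 38.8 and 65.3 TPM. The median difference of the 4 genes was -0.18 in LV and -0.15 in RV, and with 4 genes of the same samples this is a description.

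Adipocytes express Lipe, Pnpla2 and Dgat2 too, so the levels of adipocyte markers are given beside them. The 6 adipocyte markers summed to 4.98 to 20.3 TPM in LV WT-PLN, 2.82 to 5.88 in LV R14del-PLN, 4.33 to 6.39 in RV WT-PLN and 4.47 to 22.8 TPM in RV R14del-PLN samples. In LV the sums were highest in WT-PLN replicate 3, and of the defining markers Adipoq was at a mean of 1.53 TPM and Lep at 0.174 TPM over the 12 samples. The part of adipocyte RNA in these differences was not tested. Without LV R14del-PLN replicate 3, the sample with the lowest mitochondrial share, the LV differences were -0.52 for Lipe (adjusted p = 0.198), -0.27 for Pnpla2 (adjusted p = 0.261), -0.28 for Dgat2 (adjusted p = 0.232) and -0.23 for Plin5 (adjusted p = 0.446), all with limma. Leaving out that sample also moved the median LV difference of all tested genes from -0.09 to -0.19. Without both WT-PLN samples numbered 1, the LV differences were -0.34 for Lipe, -0.15 for Pnpla2 and -0.20 for Dgat2, beside a median of -0.15 over all tested genes. In RV the same omission gave -0.04, -0.08 and -0.23, beside a median of -0.04.

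The regulators were expressed at low to moderate levels, and Pdk4 varied more between samples than Ppara and Ppargc1a. Ppara, the nuclear receptor for fatty acids, was at 13.1, 17.7 and 18.8 TPM in LV WT-PLN, 13.3, 15.6 and 20.0 in RV WT-PLN, 11.3, 11.6 and 18.0 in LV R14del-PLN and 13.4, 19.1 and 11.1 in RV R14del-PLN samples. The groups overlapped, and the intervals of the genotype difference ran from -0.76 to 0.21 in LV and from -0.66 to 0.32 in RV. Ppargc1a, the coactivator of mitochondrial genes, was at 13.8, 16.2 and 16.3 TPM in LV WT-PLN, 15.7, 20.5 and 22.2 in RV WT-PLN, 13.6, 14.9 and 23.2 in LV R14del-PLN and 19.8, 21.6 and 16.2 in RV R14del-PLN samples. It also overlapped between genotypes, with differences of 0.12 and -0.02.

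Pdk4 (GRCm38 chromosome 6 from 5483351 to 5496309), the kinase that shuts pyruvate out of oxidation when fatty acids are burned, was at 208, 246 and 93.5 TPM in LV WT-PLN, 257, 236 and 123 in RV WT-PLN, 88.2, 157 and 138 in LV R14del-PLN and 119, 197 and 137 in RV R14del-PLN samples. WT-PLN held the highest values, in replicates 1 and 2 of each ventricle, and replicate 3 of WT-PLN was among the lowest of the 12. The limma difference was -0.44 in LV (SE 0.36, 95% interval -1.22 to 0.34, adjusted p = 0.769) and -0.41 in RV (SE 0.36, 95% interval -1.19 to 0.37, adjusted p = 1.00). Without both WT-PLN samples numbered 1, the differences were -0.29 in LV and -0.21 in RV (adjusted p = 0.771 and 1.00, limma). The intervals over all samples allow a change of more than 1.5-fold downward, so the data do not settle whether Pdk4 differed.

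Because PPARα and its partner bind a direct repeat of the hexamer AGGTCA with 1 base between the copies, the promoters of the group were searched for these letters. RefSeq promoter windows (GRCm38.p6, 250 bases before to 50 after each start) were at hand for 30 of the 39 members. On either strand, 7 of the 30 (23.3%) held the hexamer AGGTCA alone, beside 18.1% of 27025 genes. None of the 30 held the repeat exactly or with 1 mismatch (0.0481% and 0.644% of all genes). With up to 2 mismatches over both copies, 5 of 30 (16.7%) did, beside 4.4% of all genes, and these were Cd36, Echs1, Etfa, Ucp3 and Slc25a20. A match is a description of the letters, and the hexamer counts include those inside the repeats. The 4 that lie before the start site are shown on the strand of the gene with 8 flanking bases on each side, with the repeat in capitals. Those of Cd36 and Etfa read the repeat on the opposite strand. The first base shown in capitals lies 63 bases before the start for Cd36 (chr5:17835939-17835967), 83 for Echs1 (chr7:140116484-140116512), 77 for Etfa (chr9:55512300-55512328) and 51 for Ucp3 (chr7:100472932-100472960). The start used for Cd36 is an internal one, since the annotated gene runs from 17781690 to 17888801 on the minus strand.
Cd36: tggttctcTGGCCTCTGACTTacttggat
Echs1: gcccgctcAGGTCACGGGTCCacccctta
Etfa: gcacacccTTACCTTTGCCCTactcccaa
Ucp3: tcagaattAGGTTTCAGGTCAgctggtgc

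The comparison of RV with LV asks whether the thinner-walled ventricle uses a different set of these genes, in each genotype. In WT-PLN hearts, 0 of 39 members were called by limma, and 0.0% of all tested genes. At an unadjusted p of at most 0.05, 0 of 39 passed against 14.5% of all tested genes. The ventricles did not overlap for 3 members (Acot13, Acads and Echs1, all lower in RV) against 26.1% of all tested genes. The difference was above 0 for 11 members, and the median was -0.05 (range -0.26 to 0.34), beside -0.17 over all tested genes. With same-numbered LV and RV samples paired as a replicate block, limma called 0 of 39 members and 12 of 12526 genes.

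In R14del-PLN hearts, 0 of 39 members and 0.0% of all tested genes were called by limma. At an unadjusted p of at most 0.05, 1 of 39 passed (Acot13, lower in RV) against 6.57% of all tested genes, and the ventricles did not overlap for 1 member, again Acot13, against 9.98%. The difference was above 0 for 13 members, with a median of -0.06 (range -0.31 to 0.31), beside -0.08 over all tested genes. In WT-PLN hearts the 95% interval lay within 1.5-fold for 30 members (76.9%), beside 65.1% of all tested genes, and in R14del-PLN hearts for 31 (79.5%), beside 77.9%.

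In TPM, Acot13 was lower in all 3 RV than in all 3 LV samples of each genotype. Its group means were 284 ± 3.04 TPM in LV WT-PLN, 242 ± 7.98 TPM in RV WT-PLN, 289 ± 51.2 TPM in LV R14del-PLN and 232 ± 21.7 TPM in RV R14del-PLN samples (SD, n = 3). The limma difference was -0.23 in WT-PLN (95% interval -0.51 to 0.05, adjusted p = 0.395) and -0.31 in R14del-PLN hearts (95% interval -0.58 to -0.03, adjusted p = 0.745). With only the 6 WT-PLN samples in the fit, the adjusted p was 0.168, the lowest of any member under any setting tried. Fabp3 had similar values, -0.26 in WT-PLN (adjusted p = 0.429) and -0.24 in R14del-PLN hearts (adjusted p = 0.867, limma), with ventricles that overlapped in both genotypes. In WT-PLN hearts, where same-numbered samples deviated together, Fabp3 was lower in RV in all 3 pairs. The same held for 14 of 39 members in all, against 58.1% of all tested genes. With these pairs as a replicate block, the limma adjusted p was 0.428 for Fabp3 and 0.422 for Acot13 in WT-PLN hearts.

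Other members with the smallest p-values in WT-PLN hearts were Ppargc1a, at 0.31 the only one of the 5 that was higher in RV (95% interval -0.10 to 0.72), Lipe (-0.26, interval -0.61 to 0.10) and Lpl (-0.23, interval -0.60 to 0.14). In R14del-PLN hearts they were Eci1 (-0.26, interval -0.55 to 0.03), Echs1 (-0.16, interval -0.41 to 0.09) and Acat1 (-0.15, interval -0.41 to 0.10). Intervals of all 6 include 0. The mitochondrially encoded share was higher in RV than in LV of WT-PLN hearts (48.7% to 52.7% against 44.0% to 47.3%), and its part in the lower RV values was not tested. Once mitochondrially encoded genes were removed and the rest rescaled, the median of the members in WT-PLN hearts was 0.09.

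On that rescaled measure Acot13 had a difference of -0.09 in WT-PLN hearts. In R14del-PLN hearts it was at -0.14, and its ventricles overlapped there. Fabp3 was at -0.12 and -0.08 in these genotypes. With quantile normalization, Acot13 in WT-PLN hearts was at -0.0048. The rescaled ventricles did not overlap for 4 members in WT-PLN hearts (Acot13 lower in RV, and Acadm, Dgat2 and Ppargc1a higher) against 15.1% of all tested genes. In R14del-PLN hearts this was so for 5 members (Slc27a1, Slc25a20, Acadm, Etfa and Acot1, all higher in RV), again against 15.1%. Which members separated the ventricles thus depended on whether mitochondrially encoded transcripts were counted in the total, and Acot13 in WT-PLN hearts was the only separation found on both measures. Its rescaled margin was narrow, with a highest RV value of 501.1 and a lowest LV value of 502.4.

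**Figure D3:**
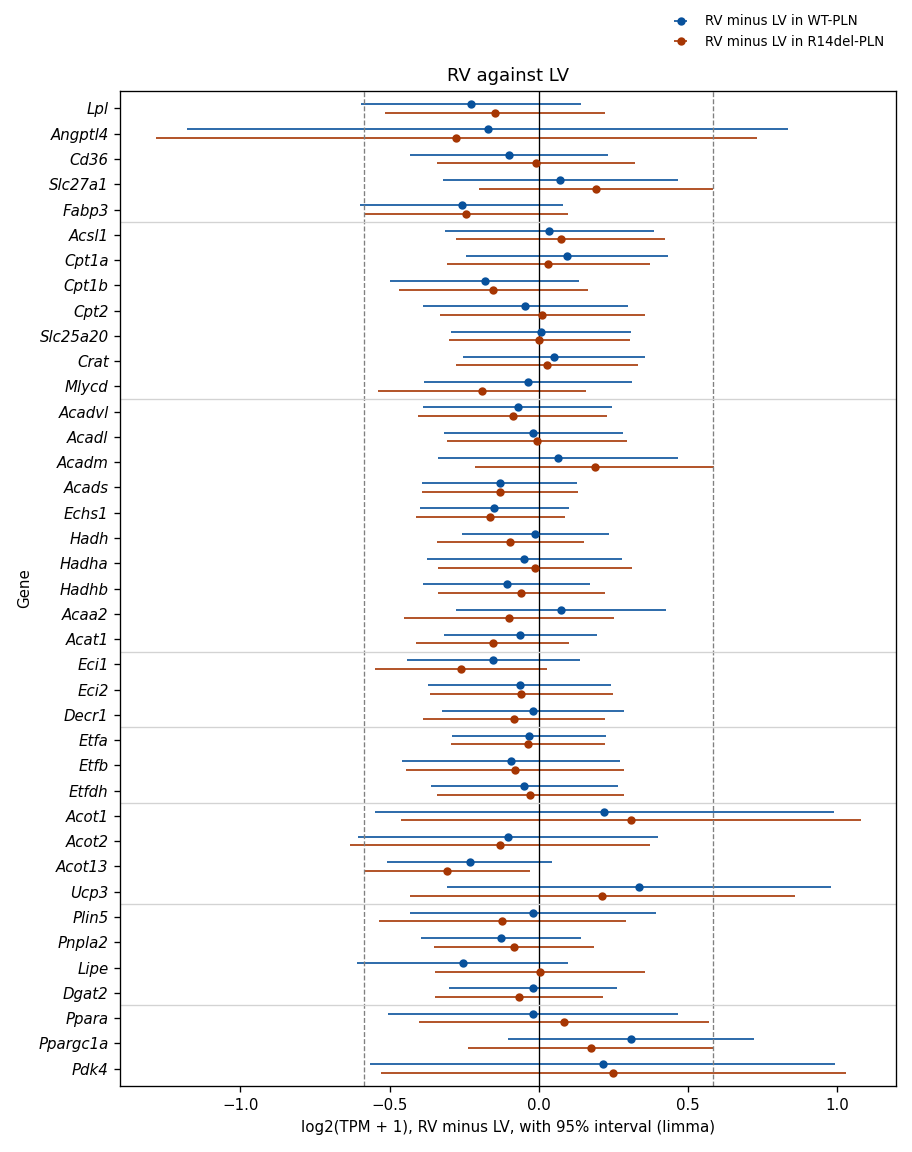
Difference of each of the 39 members between RV and LV on the log2(TPM + 1) scale, in WT-PLN (blue) and R14del-PLN (brown) hearts, as the limma estimate with its 95% interval; dashed lines mark a change of 1.5-fold. Acot13 and Fabp3 lie below 0 in both genotypes, and the interval of Acot13 in R14del-PLN hearts is the only one that leaves out 0.

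Whether the genotype acted differently in the 2 ventricles was tested as an interaction. With limma, 0 of 39 members were called and 0.0% of all tested genes, and at an unadjusted p of at most 0.05 it was 0 of 39 against 1.01%. The median interaction of the members was 0.0016, with 20 above 0, beside 0.08 over all tested genes, and the 95% interval lay within 1.5-fold for 25 of 39 (64.1%) against 49.4% of all tested genes.

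Single samples stood out across many members at once. LV R14del-PLN replicate 3 was the highest of the 12 samples for 24 of 39 members, and for 32.9% of all tested genes. LV R14del-PLN replicate 1 was the lowest for 11 members and RV WT-PLN replicate 2 for 9, against 17.3% and 13.7% of all tested genes. Summed over the 39 members, the TPM made up 1.20% to 1.72% of all TPM, with the highest share in LV R14del-PLN replicate 3. As a share of the TPM outside mitochondrially encoded genes, they made up 2.47% to 3.06%, and that sample was at 2.74%, within the range of the others.

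**Figure D4:**
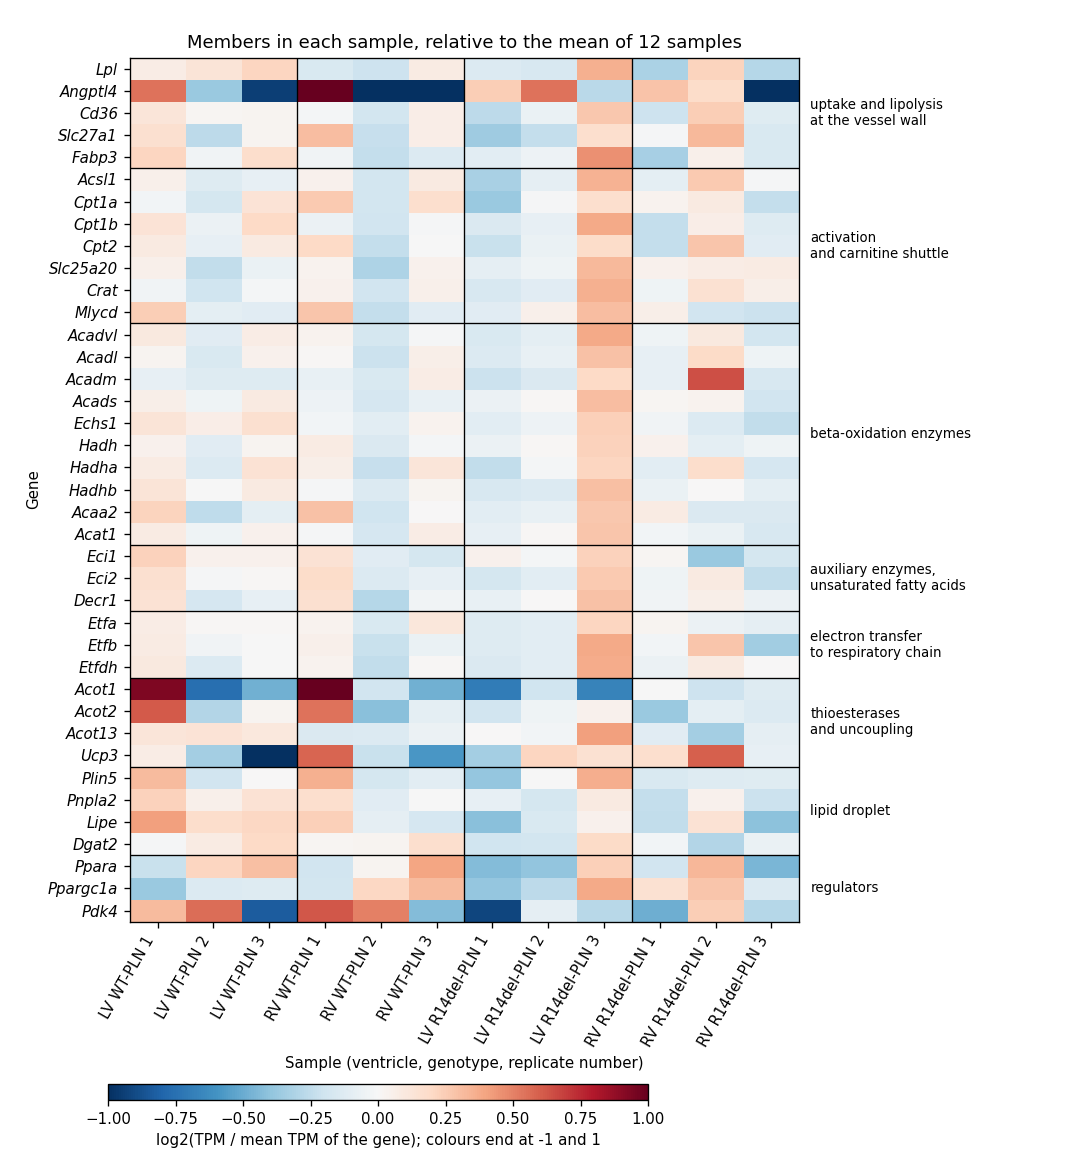
TPM of each member in each sample relative to the mean of the gene over 12 samples (log2 colour scale, blue below and red above), ordered by role and group. LV R14del-PLN replicate 3 is above the mean for most members, and single genes such as Acadm in RV R14del-PLN replicate 2 or Acot1 in both WT-PLN samples numbered 1 stand out from the column they are in.

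**Figure D5:**
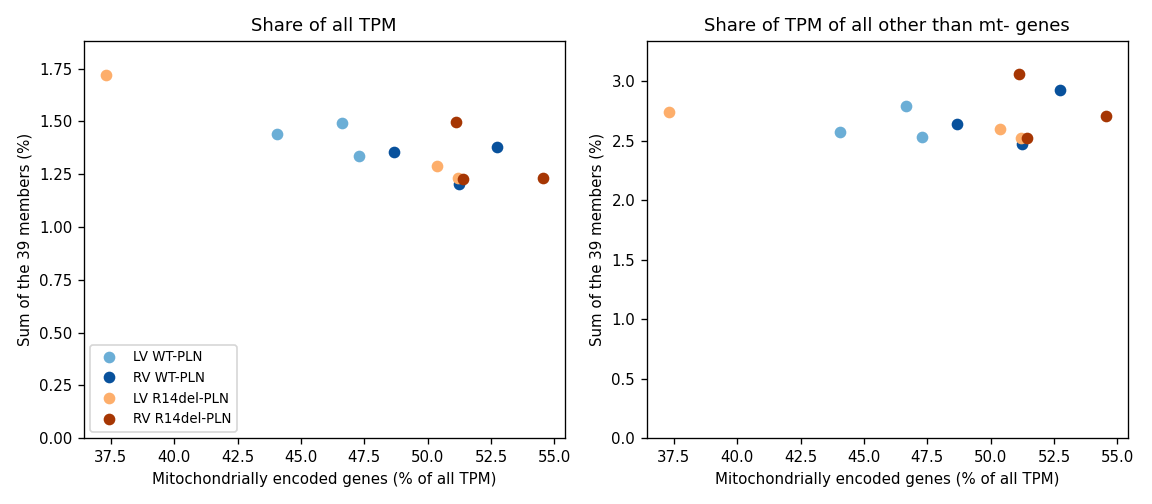
Sum of the 39 members as a percentage of all TPM (left) and of the TPM outside mitochondrially encoded genes (right), against the percentage of TPM from mitochondrially encoded genes, for each of the 12 samples coloured by group. The sample farthest to the left, LV R14del-PLN replicate 3, has the highest share on the left (1.72%) and a share inside the range of the others on the right (2.74%).

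The spread between samples is given beside that of all genes. The highest value of a member was 1.53 times its lowest at the median (range 1.29 to 9.05), against 1.78 times for the 12349 tested genes above 0 in every sample. It was more than 2 times the lowest for 5 of 39 members (12.8%), namely Angptl4 (9.05), Acot1 (3.86), Ucp3 (3.09), Pdk4 (2.91) and Acot2 (2.04), and for 34.2% of those genes. All 5 are outside the core enzymes of the spiral. Angptl4 and Acot1 were also the members with the lowest means, 3.22 and 4.05 TPM.

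Of 86 other genes of the same pathways (further carriers, synthetases, peroxisomal enzymes, ketone enzymes, droplet proteins and regulators), all were in the files, and 83 passed the filter. None of the 83 was called by limma in any comparison. At an unadjusted p of at most 0.05, 1 was higher and 3 lower in R14del-PLN LV, and 2 were higher and 2 lower in R14del-PLN RV, beside the 9.6% and 6.22% of all tested genes given above. In TPM the genotypes did not overlap for 6 of the 83 in LV and for 7 in RV, beside 11.0% of all tested genes in each ventricle. The median difference was -0.03 in LV and 0.02 in RV, beside -0.09 and -0.0034 over all tested genes. Of the genes that passed in both ventricles, which were named after their values were seen, Ehhadh, a peroxisomal oxidation enzyme, was at 2.52, 2.20 and 2.48 TPM in LV WT-PLN, 2.42, 2.08 and 2.19 in RV WT-PLN, 2.66, 3.31 and 3.62 in LV R14del-PLN and 3.33, 3.99 and 2.77 in RV R14del-PLN samples. Its R14del-PLN values were all above its WT-PLN values in each ventricle, with limma differences of 0.30 in LV (adjusted p = 0.501) and 0.43 in RV (adjusted p = 0.416). Plin4, a droplet coat protein, was at 55.1, 57.3 and 71.9 TPM in LV WT-PLN, 54.0, 61.7 and 60.2 in RV WT-PLN, 35.5, 45.2 and 57.0 in LV R14del-PLN and 40.9, 52.9 and 37.4 in RV R14del-PLN samples. Its limma differences were -0.43 in LV (adjusted p = 0.451) and -0.43 in RV (adjusted p = 0.713), and the groups overlapped in LV only. Acot7, a thioesterase, had differences of -0.48 in LV and -0.45 in RV (limma adjusted p = 0.394 and 0.713), with groups that overlapped in RV only. Cidec, a droplet protein and 1 of the 6 adipocyte markers above, was at 1.11, 1.06 and 3.40 TPM in LV WT-PLN, 1.37, 1.11 and 1.43 in RV WT-PLN, 0.370, 0.369 and 0.925 in LV R14del-PLN and 2.85, 1.00 and 1.19 in RV R14del-PLN samples. Its LV groups did not overlap, with a limma difference of -0.80 (adjusted p = 0.353), the largest in size of the 4 genes that passed in LV. It was the only 1 of the 83 with an unadjusted p of at most 0.05 for the interaction, 0.96 (adjusted p = 1.00, limma). The samples with the highest Cidec, LV WT-PLN replicate 3 and RV R14del-PLN replicate 1, also had the highest sums of the adipocyte markers (20.3 and 22.8 TPM), and the part of adipocyte RNA was not tested.

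Between ventricles, 6 of the 83 were lower in RV of WT-PLN hearts at an unadjusted p of at most 0.05 and 0 higher, and in R14del-PLN hearts 4 were lower and 1 higher (Cidec, 0.74). These are 7.23% and 6.02% of the 83, beside 14.5% and 6.57% of all tested genes, of which 13.8% were lower and 0.655% higher in RV of WT-PLN and 6.07% lower and 0.503% higher in RV of R14del-PLN hearts. Fabp5, a fatty acid binding protein, was at 11.0, 14.7 and 14.0 TPM in LV WT-PLN, 8.34, 8.49 and 10.0 in RV WT-PLN, 12.8, 15.2 and 17.3 in LV R14del-PLN and 11.7, 7.50 and 10.2 in RV R14del-PLN samples. Its RV values lay below its LV values in each genotype, with limma differences of -0.51 in WT-PLN (adjusted p = 0.266) and -0.59 in R14del-PLN hearts (adjusted p = 0.711). Scp2, a peroxisomal thiolase and lipid carrier, had differences of -0.37 and -0.31, and Mgll, which completes the breakdown of triglyceride, of -0.50 and -0.31. Without mitochondrially encoded genes, the differences in WT-PLN and R14del-PLN hearts were -0.40 and -0.45 for Fabp5, -0.23 and -0.15 for Scp2, and -0.38 and -0.15 for Mgll. Endothelial cells express Fabp5 too, and the 5 endothelial markers summed to 126 to 163 TPM in LV and 93.9 to 108 TPM in RV of WT-PLN hearts, against 126 to 158 in LV and 102 to 129.7 TPM in RV of R14del-PLN hearts. Their part in the difference was not tested.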

How the data were processed

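RNA was measured by sequencing of polyA stranded libraries in 12 samples of mouse LV and RV. The values deposited by the authors are TPM, scaled to a sum of 1000000 in each sample, which keeps no depth. The study's methods name CLC Genomics Workbench and GRCm38 for mapping and testing; what program, annotation and strand setting lie behind the TPM is not given in the sources used here. Since TPM are not counts, limma was used in place of the study's test.

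Groups and replicate numbers were taken from the labels, with samples titled KO read as R14del-PLN by their genotype entry. The 39 members, their roles and the other gene lists were chosen with earlier results of these data known. With limma 3.58.1 (R 4.3.3), moderated with a trend on intensity (prior degrees of freedom 5.15, residual 8), a model was fitted to log2(TPM + 1) of the 12526 genes that averaged 0.5 TPM or more, all 12 samples in 1 model of 4 group means, with p-values adjusted by Benjamini-Hochberg over all of them. Genes were called at the thresholds of the study's methods. The model was tested on simulated data with independent noise, in which 400 of 12526 genes were given a log2 change of 1.5 in LV R14del-PLN. For the genotypes in LV it called 396 of them and 11 others. That change is larger than any member difference seen here, so the simulation does not show how well smaller ones are found. Differences of low genes are understated by the pseudocount of 1 TPM.

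Same-numbered LV and RV samples deviated together in WT-PLN hearts (correlations of their deviations from group means 0.66, 0.32 and 0.46), which pairs them there by the data, since the labels name no shared mouse. The replicate number was therefore tried as a block, within each genotype for RV against LV and across genotypes within each ventricle for the fixed block of R14del-PLN against WT-PLN. Overlap between groups on values without mitochondrially encoded genes was added after the data were seen.

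Values were given in full for the 5 members with the smallest unadjusted p in each comparison of 2 groups and for the most abundant member of each role, and other members by ranges or group means. Alternatives were a pseudocount of 0.1, a filter at a mean of 5 TPM or none, no intensity trend, scaling by quantiles or the upper quartile, rescaling without mitochondrially encoded genes, fits of 6 samples, replicate blocks (fixed, and random with statmod 1.5.0), the adjusted p alone, each sample left out in turn, and both WT-PLN samples numbered 1 left out. Positions and near-identical transcripts (at least 95% identity over at least 80% of the shorter, BLAST 2.17.0) came from the GENCODE annotation of GRCm38, promoters from RefSeq. Python 3.11.15 with numpy 2.4.6, pandas 2.3.3 and matplotlib 3.10.9 served for the other steps. Protein levels, calcium measurements and gene set enrichment were not analysed here.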

Additional observations from a re-analysis of the deposited data

How the results depend on the processing

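Under the main setting and all 24 others, 0 of the 39 members were called in any comparison tested (fits of only 6 samples hold no interaction), and the lowest adjusted p of a member was 0.168. The median difference of the members did depend on scaling and on LV R14del-PLN replicate 3. For R14del-PLN minus WT-PLN in LV it was -0.02, became 0.10 with upper quartile scaling, and ranged from -0.15 (without LV R14del-PLN replicate 3) to 0.0829 (without LV R14del-PLN replicate 1) with each sample left out. The median of all tested genes moved too, from -0.09 to 0.01 with upper quartile scaling, -0.19 without that replicate 3 and -0.02 without that replicate 1. For RV minus LV in WT-PLN the median of the members was -0.05 and became 0.16 with quantile normalization, 0.15 with upper quartile scaling and 0.0906 without mitochondrially encoded genes, settings that moved the median of all tested genes from -0.17 to 0.0051, -0.0072 and -0.06. For RV minus LV in R14del-PLN hearts the median of the members was -0.06 and became 0.11 with quantile normalization and 0.10 without mitochondrially encoded genes. With each sample left out it ranged from -0.13 (without LV R14del-PLN replicate 1) to 0.0818 (without LV R14del-PLN replicate 3), beside -0.15 and 0.02 over all tested genes. On all 4 of these scales the median of the members lay above that of all tested genes, in both genotypes, and a direction between ventricles in TPM is a direction of shares.

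Of 480 alternative values for 20 results of named members, 474 kept their sign, but many of them could not change it. The filter, the trend, the block, fits of 6 samples and the adjusted p alone leave a difference of group means as it is. So does leaving out a sample outside the comparison. The 20 results were also picked by their small p-values in these same data. Lpl in RV minus LV of WT-PLN hearts became 0.0258 with quantile normalization. In R14del-PLN hearts, with quantile normalization and without mitochondrially encoded genes, Echs1 became 0.0260 and 9.6e-05 and Acat1 0.0113 and 0.0090. Acadm in R14del-PLN minus WT-PLN of RV was -0.0722 without RV R14del-PLN replicate 2 and ranged up to 0.33. The replicate block, fixed or random (consensus correlation 0.0885), left the count of called members at 0 in each comparison. Every group holds the same replicate numbers, so a block cannot move the medians, which stayed as they were (-0.02 for the genotypes in LV). The fixed block raised the calls over all genes for the genotypes in LV from 65 to 119 and in RV from 34 to 62, although the same-numbered samples of different genotypes share only a number. Same-numbered LV and RV samples of R14del-PLN hearts had correlations of 0.39, 0.23 and 0.05. A filter at a mean of 5 TPM left 37 members (Acot1 and Angptl4 fell below it).

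The values hold no record of depth, so counting error cannot be given. With 3 samples a group, the 95% interval of the genotype difference in LV reached beyond 1.5-fold for 7 of 39 members.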
